A study of Rattus norvegicus with 9 samples.

Results

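Hox genes encode homeodomain transcription factors that give cells along the head-to-tail axis their positional identity. This report describes the Hox genes of rat lumbar spinal cord, taken as every row of the expression table whose gene name is Hox, a cluster letter from a to d, and a number. The rule found 43 rows with 37 gene symbols among 34890 loci. Of the 39 Hox symbols that RefSeq lists for the rat, Hoxa5 and Hoxa6 were not analysed here. The rule used names only and no expression value. The question put to them was whether the tissue came from the same level of the cord in the 3 groups of rats.

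RNA was sequenced from the injured or operated side of spinal cord segments L3-L6 of 9 wild-type male Sprague Dawley rats, 3 in each group, labelled as biological replicates. JA rats had a sham operation and were given normal saline by mouth. SNI rats had spared nerve injury, in which 2 branches of the sciatic nerve are tied and cut, and received the same saline. PLM rats had the same injury and received paeoniflorin, from peony root, at 20.65 mg/mL together with liquiritin, from liquorice root. The labels give the liquiritin of PLM 1, 2 and 3 as 3.98, 3.99 and 3.100 mg/mL. The methods of the study state a single liquiritin dose for the whole group, that of the first label, so these are not read as different doses. Saline or drug was given daily for 21 days after the operation. No group had the drugs without the injury, so values of PLM describe injured cord only. The deposited values are TPM, the length-corrected share of each gene in a sample's transcripts, scaled to a fixed total, so levels can be compared between genes. TPM keeps no record of depth, and the counting error behind each value is unknown.

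The Hox genes lie in 4 clusters, A to D, and genes at the same place in different clusters share a number, the paralog group. Low numbers are expressed from the hindbrain downwards and high numbers only further towards the tail, an order that follows the order of the genes along the chromosome. In the spinal cord, groups 4 to 7 are known for the neck and forelimb levels, groups 8 and 9 for the thoracic cord, groups 10 and 11 for the lumbar cord and its leg motor neurons, and groups 12 and 13 for the sacral and tail end. Adult cord keeps much of this pattern. In whole tissue, fewer cells that express a gene and less RNA of it per cell cannot be told apart.

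The level of the transcripts followed the paralog number only in part. Hoxd9, Hoxd10 and Hoxd11 are neighbours in cluster D, and the first 2 had mean levels of 20.1 and 23.0 TPM over the 9 samples, whereas Hoxd11 was listed at 0 in every sample. The 250 bases before each RefSeq start site in build GRCr8 are shown because the level goes from about 20 TPM to a listed 0 between these neighbours. Capitals mark TAAT or, on the other strand, ATTA, the core that many homeodomains bind. The windows are chr3:80007756-80008005 for Hoxd9, chr3:80001697-80001946 for Hoxd10 and chr3:79992144-79992393 for Hoxd11, all on the plus strand, read 5′ to 3′.
Hoxd9: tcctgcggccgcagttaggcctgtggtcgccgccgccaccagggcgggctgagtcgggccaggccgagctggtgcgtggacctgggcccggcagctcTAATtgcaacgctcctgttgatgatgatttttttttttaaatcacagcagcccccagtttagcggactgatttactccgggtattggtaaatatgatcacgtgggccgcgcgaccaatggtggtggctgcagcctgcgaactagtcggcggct
Hoxd10: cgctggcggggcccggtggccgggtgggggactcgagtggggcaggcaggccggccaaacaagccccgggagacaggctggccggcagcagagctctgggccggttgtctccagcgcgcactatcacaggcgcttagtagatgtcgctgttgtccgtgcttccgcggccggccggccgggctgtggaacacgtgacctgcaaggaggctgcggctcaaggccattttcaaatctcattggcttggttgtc
Hoxd11: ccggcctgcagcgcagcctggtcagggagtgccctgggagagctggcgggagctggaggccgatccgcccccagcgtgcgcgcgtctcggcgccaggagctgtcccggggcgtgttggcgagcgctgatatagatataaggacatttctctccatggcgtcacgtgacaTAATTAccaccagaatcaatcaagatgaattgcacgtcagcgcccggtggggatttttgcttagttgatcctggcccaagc
Hoxd9 held 1 TAAT core, Hoxd10 held 0, and Hoxd11 held 2 that overlap in a single run. A core was found in 57.0% of all 33469 windows of this length and in 12 of the 21 Hox windows, which cover 20 symbols. The 3 windows also had like numbers of CG dinucleotides, with 20, 21 and 20, against a median of 20 over the Hox windows and 5 over all windows.

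Of the 43 rows, 28 averaged 1 TPM or more across all 9 samples and 15 were lower. Hoxa7 and 10 of the lower rows were listed at 0 in at least 1 sample. Hoxb8, a cluster B gene of the thoracic group, stood far above the rest. It was at 133.10, 135.04 and 129.43 TPM in JA, at 158.12, 114.06 and 136.30 TPM in SNI, and at 138.13, 134.50 and 124.73 TPM in PLM. The 3 ranges overlapped, and Hoxb8 alone held 27.9% of the mean Hox TPM. The 5 highest rows together, Hoxb8, Hoxc12, Hoxc10, Hoxb6 and Hoxc11, held 56.5% of it and the 10 highest held 77.5%. Hoxc12 at a mean of 41.2 TPM and Hoxc10 at 39.7 TPM did not differ beyond their spread, since Hoxc12 was the higher in only 6 of the 9 samples.

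**Figure D1:**
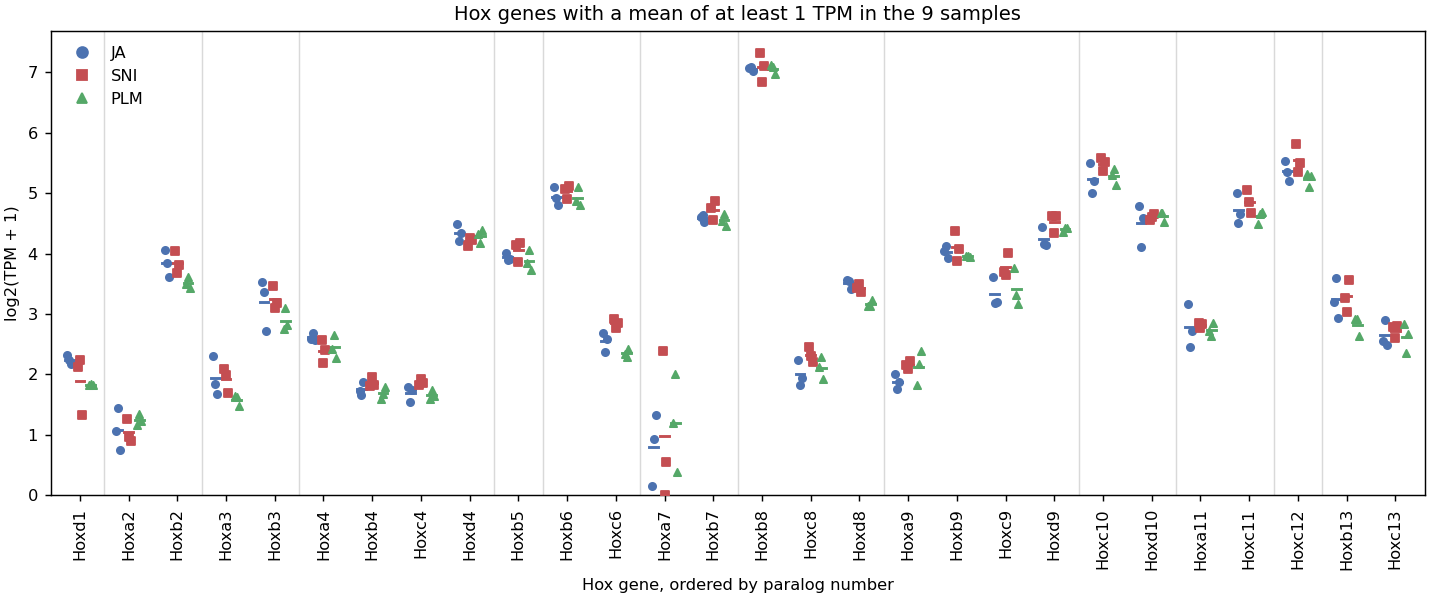
Log2(TPM + 1) of the 28 Hox rows that averaged 1 TPM or more, ordered by paralog number; each point is a sample, each short line is the mean of a group of 3, and grey lines part the paralog groups. Hoxb8 stands highest in all 9 samples, the groups lie on top of each other for most genes, and Hoxa7 spreads from 0 to 4.23 TPM.

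Genes of the head end were low but not absent. The Hox1 to Hox3 rows, 10 in number, summed to 31.9 ± 6.90 TPM in JA (SD, here and below over the 3 rats of a group), 31.2 ± 3.72 TPM in SNI and 23.9 ± 1.76 TPM in PLM. Most of this was Hoxb2 at 9.81 to 15.60 TPM and Hoxb3 at 5.62 to 10.58 TPM, both hindbrain patterning genes. Hoxb1, which acts in the hindbrain, never exceeded 0.3 TPM. Hoxd1 ranged from 1.51 to 4.0 TPM, and its 3 PLM samples, at 2.54 to 2.60 TPM, lay below the 3 JA samples, at 3.50 to 4.0 TPM.

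The Hox4 to Hox7 genes, which pattern the neck and forelimb levels, were led by cluster B. Hoxb6 was at 33.28, 29.41 and 26.90 TPM in JA, at 32.68, 29.08 and 33.56 TPM in SNI, and at 28.35, 33.34 and 26.93 TPM in PLM, with no group apart. Hoxb7 had a mean of 23.7 TPM, Hoxd4 of 18.5 TPM and Hoxb5 of 14.6 TPM. Hoxa7 was uneven within every group, from 0.11 to 1.5 TPM in JA, from a listed 0 to 4.23 TPM in SNI and from 0.30 to 3.00 TPM in PLM. Hoxc6, a gene of forelimb-level motor neurons, was at 5.46, 4.19 and 5.02 TPM in JA, at 6.56, 5.82 and 6.19 TPM in SNI, and at 4.07, 3.89 and 4.38 TPM in PLM. Its SNI samples were the highest and its PLM samples overlapped only JA.

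Among the Hox8 and Hox9 genes, which set thoracic identity, levels differed widely between clusters. Hoxc8 was at 3.71, 2.56 and 2.82 TPM in JA, 4.49, 3.94 and 3.62 TPM in SNI, and 3.34, 3.91 and 2.79 TPM in PLM, with overlap of all groups. Hoxd8 was at 10.83, 10.66 and 9.68 TPM in JA, 9.77, 10.35 and 9.33 TPM in SNI, and 7.79, 7.78 and 8.41 TPM in PLM. The 3 PLM samples lay below the other 6.
Hoxa9 was at 3.00, 2.38 and 2.68 TPM in JA, 3.47, 3.24 and 3.68 TPM in SNI, and 2.56, 3.53 and 4.22 TPM in PLM. Hoxb9 was at 15.41, 16.46 and 14.16 TPM in JA, 19.74, 13.78 and 15.85 TPM in SNI, and 14.57, 14.61 and 14.36 TPM in PLM. Hoxa9 was higher in the SNI samples than in any JA sample, and Hoxb9 overlapped in all groups.
Hoxc9, which marks thoracic motor columns, was at 11.28, 8.04 and 8.18 TPM in JA, 11.91, 11.52 and 15.03 TPM in SNI, and 12.54, 8.93 and 8.02 TPM in PLM. Hoxd9 was at 20.60, 16.88 and 16.61 TPM in JA, 23.69, 19.27 and 23.50 TPM in SNI, and 19.59, 20.40 and 20.55 TPM in PLM. JA and SNI did not overlap for Hoxc9 but did for Hoxd9, and PLM overlapped both groups for each gene.

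The lumbar genes above 1 TPM on average came from clusters C and D in group 10 and from clusters A and C in group 11. Hoxc10, required with its paralogs for lumbar motor neurons, was at 44.08, 31.01 and 35.64 TPM in JA, 46.88, 40.49 and 44.77 TPM in SNI, and 38.44, 41.38 and 34.32 TPM in PLM. Hoxd10, its cluster D paralog, was at 26.77, 16.22 and 23.19 TPM in JA, 22.58, 23.28 and 24.19 TPM in SNI, and 24.51, 24.52 and 21.99 TPM in PLM. For both genes JA 2 was the lowest of the 9 samples, and all groups overlapped.
Hoxc11 was at 30.89, 21.70 and 24.31 TPM in JA, 32.14, 27.87 and 24.36 TPM in SNI, and 21.55, 24.33 and 24.90 TPM in PLM. The main Hoxa11 row, a gene best known from limb and kidney, was at 7.98, 4.48 and 5.58 TPM in JA, 6.18, 5.85 and 6.13 TPM in SNI, and 5.62, 5.25 and 6.23 TPM in PLM. The spread within JA was wider than the whole range of the other 2 groups for Hoxa11 and Hoxd10. Hoxa10 stayed between a listed 0 and 1.41 TPM.

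The sacral and tail genes of groups 12 and 13 came from clusters B and C. Hoxc12 was at 45.52, 39.86 and 35.83 TPM in JA, 55.20, 39.96 and 44.16 TPM in SNI, and 38.94, 33.47 and 37.76 TPM in PLM. Hoxb13, the last gene of cluster B, was at 8.22, 11.16 and 6.62 TPM in JA, 8.65, 7.19 and 10.89 TPM in SNI, and 6.57, 6.53 and 5.25 TPM in PLM. Hoxc13, the last of cluster C, was at 4.86, 6.51 and 4.6 TPM in JA, 5.91, 5.06 and 5.94 TPM in SNI, and 6.14, 4.09 and 5.34 TPM in PLM. The PLM samples lay below all SNI samples for Hoxc12 and below all other samples for Hoxb13, whereas Hoxc13 overlapped throughout. Hoxd12, Hoxd13 and the 2 rows of Hoxa13 stayed at or below 1.28 TPM, so of the group 13 genes 2 of 4 were above 1 TPM on average.

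In 6 bins of paralog numbers, the share of Hox TPM overlapped between JA and SNI in every bin, while PLM stood apart from SNI in 2 of them. Groups 8 and 9 held the largest share, 40.5% ± 1.82 in JA, 40.1% ± 1.39 in SNI and 42.1% ± 0.758 in PLM. Each PLM sample (41.4% to 42.9%) was above each SNI sample (38.6% to 41.2%). Summed TPM of groups 8 and 9 was not higher in PLM, at 192 ± 7.89 TPM beside 205 ± 27.6 TPM in SNI. All Hox rows together summed to 456 ± 17.0 TPM in PLM and 510 ± 52.2 TPM in SNI. Groups 12 and 13 held 11.7% ± 1.08 in JA, 12.2% ± 0.524 in SNI and 10.7% ± 1.05 in PLM, and here each PLM sample (9.53% to 11.5%) was below each SNI sample (11.7% to 12.8%). Group 10 held 12.6% ± 1.73, 13.4% ± 0.710 and 13.5% ± 0.552 in the same order, and group 11 held 6.66% ± 0.922, 6.74% ± 0.692 and 6.44% ± 0.641. These 2 lumbar bins overlapped in all groups, as did groups 4 to 7, at 21.8% ± 0.584, 21.4% ± 1.01 and 22.0% ± 1.08. Groups 1 to 3 held 6.71% ± 1.02, 6.13% ± 0.550 and 5.25% ± 0.246, and the highest PLM sample, at 5.53%, was just under the lowest JA sample, at 5.55%.

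Group 9 was the only paralog number at which the 3 JA samples lay apart from all 6 injured rats in their share, a gap picked out after the values were seen. It held 9.56% ± 0.209 of Hox TPM in JA, 10.8% ± 0.521 in SNI and 10.5% ± 0.345 in PLM. No JA sample was above 9.77%, and no sample of an injured rat was below 10.1%.

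**Figure D2:**
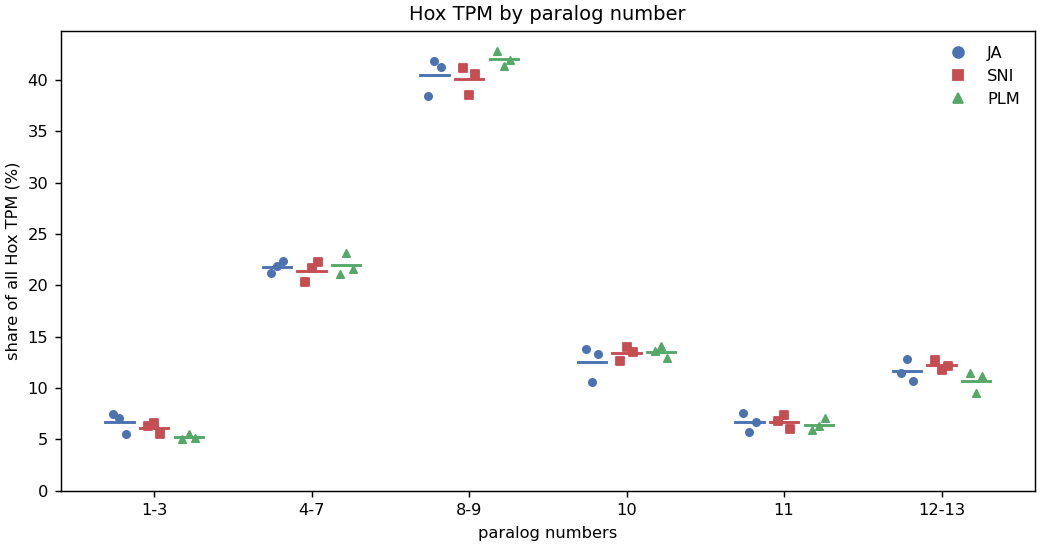
Share of all Hox TPM (%, y axis) on 6 bins of paralog numbers (x axis) in each sample; each point is a sample and each line the mean of 3. The 8-9 bin is the highest in every sample, between 38.5% and 42.9%, and PLM lies above SNI there and below it in the 12-13 bin.

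A single value for position, the mean paralog number weighted by TPM, was between 8.09 and 8.26 in all 9 samples. It averaged 8.12 ± 0.0225 in JA, 8.23 ± 0.0377 in SNI rats and 8.18 ± 0.0697 in PLM. The 3 SNI samples lay above the 3 JA samples by 0.114 on average, and PLM overlapped both, with a difference of -0.0475 from SNI and of 0.0666 from JA. No test was made of this score, because it is made of the genes chosen. The difference of PLM from SNI turned to 0.0222 when log2(TPM + 1) was the weight. It was -0.00746 without PLM 2 and -0.0314 without SNI 1, and the difference of PLM from JA was 0.107 without PLM 2 and 0.0432 without PLM 1. That of SNI from JA was 0.153 without Hoxb8, and it turned to -0.0102 with cluster B alone and to -0.0790 with cluster C alone. Over all alternatives the difference of SNI from JA ran from -0.0790 to 0.352. That of PLM from SNI ran from -0.0709 to 0.0518, and that of PLM from JA from -0.0370 to 0.384. The table holds no samples from known segments, so a step of 0.114 could not be turned into a length of cord.

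Groups 10 to 13, the lumbar and more caudal groups together, held 30.9% ± 1.85 of Hox TPM in JA, 32.3% ± 0.761 in SNI rats and 30.7% ± 0.719 in PLM. SNI exceeded JA by 1.41 percentage points, less than the SD of JA, and the groups overlapped. This difference was 0.525 points without JA 2 and 2.37 points without JA 1. PLM differed from SNI by -1.61 points, with the highest PLM sample at 31.3% and the lowest SNI sample at 31.6%, and from JA by -0.195 points. Over all alternatives the difference of PLM from SNI ran from -2.43 to -0.755 points. The difference of PLM from JA had no steady sign, at 0.758 points without JA 1, 0.205 points without PLM 2 and -1.08 points without JA 2. On groups 11 to 13 alone SNI differed from JA by 0.595 points and PLM from JA by -1.18 points.

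The ratio of the group 13 to the group 10 genes, chosen after the values were seen, set JA 2 apart. The summed TPM of group 13 was 0.392 times that of group 10 in JA 2 and 0.169 to 0.257 times in the other 8 samples. JA 2 thus had both the lowest Hoxc10 and Hoxd10 and the highest Hoxb13 and Hoxc13 of the 9. The mean ratio of JA was 0.262 ± 0.113 with JA 2 and 0.196 ± 0.00332 without it (SD, n = 2), beside 0.233 ± 0.0229 in SNI and 0.196 ± 0.0270 in PLM. JA 2 also had a Hoxd10 level only 0.961 times that of Hoxd9, near that of SNI 1 at 0.953, whereas JA 1 and JA 3 were at 1.3 and 1.4. The mean paralog number of JA 2, 8.09, was by contrast the lowest of the 9.

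**Figure D3:**
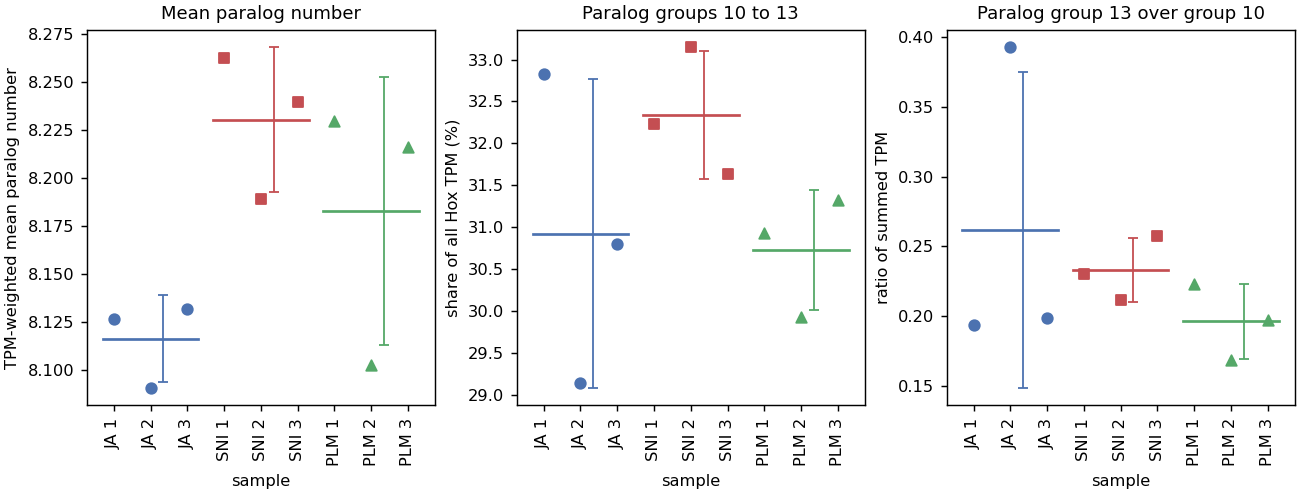
Mean paralog number weighted by TPM, percent of Hox TPM on groups 10 to 13, and ratio of the summed TPM of group 13 to group 10 (y axes, none starting at 0) in each sample; lines are means of 3 and bars are SD. SNI lies above JA in the first panel, PLM below SNI in the second, and JA 2 at 0.392 above all others in the third.

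Sham and injured cord were compared to ask whether injury, or the level sampled, moved the Hox genes. Differences are those of log2(TPM + 1), a scale that shrinks changes of low genes, and a gene was called at a limma p under 0.05 with an absolute log2 fold change above 1, the study's thresholds. In SNI against JA, 29 rows averaged 1 TPM or more in these 6 samples and 0 of them were called, beside 0.688% of all loci tested. At an adjusted p under 0.05 in limma, 0 rows passed, beside 0% of all loci. At an unadjusted p under 0.05 there were 2 rows, Hoxc9 and Hoxc6, beside 7.1% of loci. Hoxc9 differed by 0.45 (95% interval 0.06 to 0.84, adjusted p = 0.614 in limma) and Hoxc6 by 0.29 (0.00 to 0.58, adjusted p = 0.614). Groups did not overlap for 4 rows, all higher in SNI (Hoxc9, Hoxc6, Hoxc4 and Hoxa9), beside 13.8% of loci in either direction. The median change of the rows was 0.10 and that of all loci 0.12.

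The intervals of the lumbar genes, and of some sacral and thoracic ones, showed how large a difference these samples could have hidden. Hoxc10 differed between SNI and JA by 0.26 (95% interval -0.07 to 0.59), Hoxd10 by 0.11 (-0.31 to 0.53), Hoxc11 by 0.14 (-0.24 to 0.51) and Hoxa11 by 0.04 (-0.40 to 0.48). For Hoxc12 the difference was 0.19 (-0.16 to 0.54), for Hoxb13 0.05 (-0.46 to 0.55), for Hoxc13 0.08 (-0.27 to 0.43) and for Hoxb8 0.03 (-0.27 to 0.32). Each interval held 0, and none reached a change of 1 in either direction. The median half-width of the interval over the 29 rows was 0.35.

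**Figure D4:**
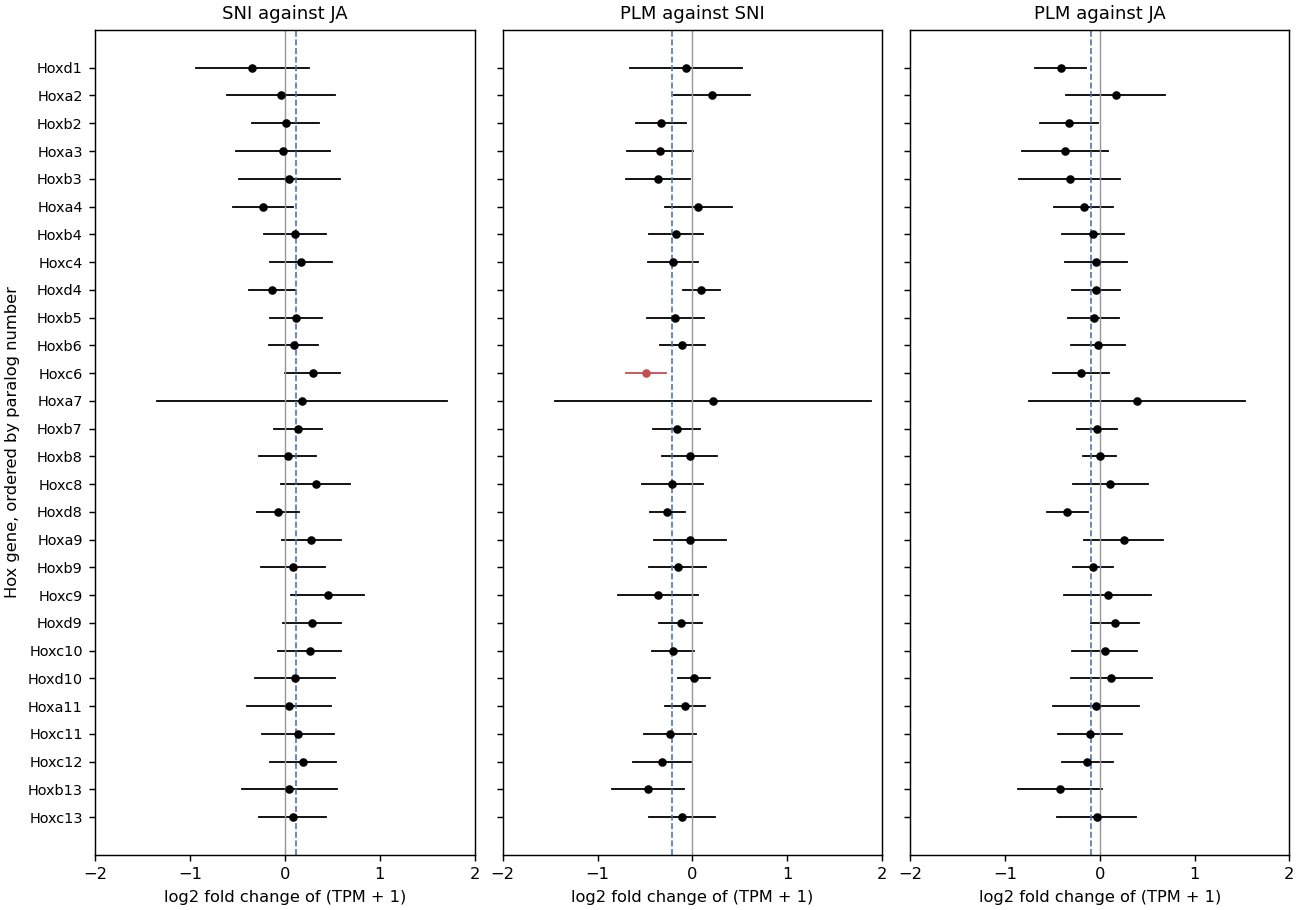
Log2 fold change of (TPM + 1) with its 95% interval from limma (x axis) for the 28 Hox rows that averaged 1 TPM or more (y axis, by paralog number) in the 3 comparisons; the dashed line is the median of all loci tested and red marks an adjusted p under 0.05. Points lie between -0.49 and 0.45, only Hoxc6 in PLM against SNI is red, and the interval of Hoxa7 is the widest.

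Drug-treated and untreated injured cord were compared next. In PLM against SNI, 28 rows were tested and 0 were called, beside 1.65% of all loci. Hoxc6 alone, 1 of 28, passed an adjusted p under 0.05, a smaller share than the 13.9% of all loci that passed, and fell by 0.49 on the log2 scale (95% interval -0.71 to -0.28, limma adjusted p = 0.0254). The median of all loci was itself at -0.21 here and that of the Hox rows at -0.17, and on samples centred on their median Hoxc6 was at -0.24 with an adjusted p of 0.210. Its adjusted p was between 0.0211 and 0.210 over the alternatives, and it passed the threshold in 6 of 15; leaving out any PLM sample, SNI 1 or SNI 3 took it past 0.05. RefSeq models of Hoxc6 overlap those of Hoxc4 and Hoxc5, so reads in the shared stretch cannot be given to a single gene with certainty.

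At an unadjusted p under 0.05 there were 6 rows in PLM against SNI, beside 37.1% of all loci. Groups did not overlap for 8 of the 28, all lower in PLM, beside 43.5% of loci in either direction. These 8 were Hoxa3, Hoxb2, Hoxb4, Hoxb13, Hoxc4, Hoxc6, Hoxc12 and Hoxd8, of paralog numbers 2, 3, 4, 6, 8, 12 and 13, and they held 0 of the 4 tested rows of the lumbar groups 10 and 11, too few for a contrast. Hoxb13 differed by -0.47 (-0.84 to -0.09, adjusted p = 0.0878 in limma), Hoxc12 by -0.32 (-0.63 to -0.01, adjusted p = 0.125) and Hoxd8 by -0.27 (-0.45 to -0.08, adjusted p = 0.0622). On median-centred samples these differences were -0.22, -0.07 and -0.02. Hoxd10 differed by 0.02 (-0.15 to 0.19), Hoxc10 by -0.21 (-0.43 to 0.01), Hoxc11 by -0.24 (-0.51 to 0.04) and Hoxa11 by -0.08 (-0.29 to 0.14).

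PLM and JA, which share their samples with the comparisons above, gave 28 tested rows and 0 called, beside 0.938% of all loci. At an adjusted p under 0.05 there were 0 rows, beside 0.0195% of loci. At an unadjusted p under 0.05 there were 3, beside 11.8% of loci, with Hoxd1 at -0.41 (95% interval -0.68 to -0.14) and Hoxd8 at -0.34 (-0.56 to -0.12), each at an adjusted p of 0.342 in limma. Groups did not overlap for 5 rows, all lower in PLM (Hoxd1, Hoxb2, Hoxa3, Hoxd8 and Hoxb13), beside 17.7% of loci. Hoxc10 differed by 0.05 (-0.29 to 0.39), Hoxd10 by 0.12 (-0.30 to 0.55) and Hoxb8 by 0.00 (-0.18 to 0.17).

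Hox rows varied between samples about as much as other loci. Their median coefficient of variation over the 9 samples was 14.7% for the 28 rows, beside 16% for all 15503 loci that averaged 1 TPM or more. Across the 28 rows, Pearson's r of 2 samples was 0.952 to 0.987 within a group (9 pairs) and 0.952 to 0.994 between groups (27 pairs), with a median of 0.977 for each. These are correlations over genes, which are not independent replicates.

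Hox proteins bind DNA with TALE homeodomain partners, and chromatin regulators hold the clusters open or shut. Of 9 TALE genes tested, 0 were called in the 3 comparisons, and only Meis1 passed the adjusted threshold, lower in PLM than in SNI by a log2 change of -0.40 (adjusted p = 0.0478 in limma). In that comparison 13.9% of all loci passed and their median was -0.21, so 1 of 9 TALE genes, like 1 of the 11 chromatin genes below, is near the background. Pbx3, the highest TALE gene, was at 43.7 to 65.4 TPM. Of 12 Polycomb and Trithorax genes, 11 were tested and 0 were called. Rnf2, a Polycomb ubiquitin ligase, was lower in PLM than in SNI by -0.31 (adjusted p = 0.0398), and Ring1, its paralog, was the highest at 22.6 to 28.2 TPM. Of 10 genes that set up Hox expression in the embryo, 6 were tested and 0 passed either rule. Gdf11, a signal of the trunk to tail transition, was the highest at 13.6 to 21.2 TPM, and Cdx4 was listed at 0 throughout.

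Neuron markers summed to 1991 to 3863 TPM in JA, 3948 to 4893 TPM in SNI and 3401 to 3907 TPM in PLM. By this sum every SNI sample was above the others. Nefm, at 1736 to 2134 TPM in SNI, was the largest part of the sum and stood apart in this way by itself. Slc17a6 did too, whereas for Snap25, Rbfox3, Syt1, Nefl and Slc32a1 SNI 2 lay below a JA or PLM sample. Oligodendrocyte markers summed to 47660 to 55024 TPM in JA, 44923 to 47159 TPM in SNI and 48749 to 49919 TPM in PLM. Every SNI sum was below the others, but most of it was Mbp, and no other gene of the list set SNI apart this way. The part of either list in the Hox differences of SNI from JA and PLM was not tested. Forebrain markers summed to 2.1 to 3.5 TPM in every sample, most of it Neurod6 at 1.64 to 2.97 TPM, with Emx1 at or below 0.02 TPM. The midbrain and hindbrain list summed to 8.59 to 13.5 TPM, most of it Pax2, which is also expressed in spinal cord, at 7.96 to 12.4 TPM, and the midbrain gene Otx2 was listed at 0 in all 9. Markers of sensory ganglion neurons summed to 1.8 to 3.7 TPM.
Markers of attached tissue varied widely within groups. Schwann cell markers, a measure of attached nerve root, summed to 121 to 7570 TPM in JA, 548 to 4360 in SNI and 265 to 3209 in PLM. Meninges and fibroblast markers summed to 46.4 to 331 TPM over the 9 samples and muscle markers to 9.3 to 79.1 TPM. Mitochondrial genes took 29.1% ± 3.75 of TPM in JA, 24.6% ± 1.3 in SNI rats and 32.0% ± 0.768 in PLM, and their share scales all other TPM values.

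Of 15 motor column and limb-level genes, 13 were tested in SNI against JA and 2, both used by cholinergic neurons such as the motor neurons of the ventral horn, were called higher in SNI, beside 0.688% of all loci called. Slc18a3, the vesicular acetylcholine transporter, was at 21.01, 8.40 and 4.56 TPM in JA, 26.87, 20.14 and 28.90 TPM in SNI, and 15.82, 18.44 and 13.78 TPM in PLM. Slc5a7, the choline transporter, was at 6.96, 2.63 and 1.79 TPM in JA, 9.46, 8.69 and 10.43 TPM in SNI, and 6.19, 6.84 and 5.28 TPM in PLM. JA 2 and JA 3 were the lowest 2 samples for both genes, while JA 1 lay among the injured samples.
Slc18a3 differed between SNI and JA by 1.31 on the log2 scale (95% interval 0.20 to 2.43, adjusted p = 0.614 in limma) and Slc5a7 by 1.28 (0.41 to 2.15, adjusted p = 0.614). In PLM against SNI, Slc5a7 was at -0.57 with an adjusted p of 0.0303 in limma. It was the only 1 of the 13 tested genes of this list to pass, beside 13.9% of all loci, whose median was -0.21. Prph, peripherin, the highest gene of this list, was at 64.8 to 239 TPM. Nefm, a neurofilament of large neurons on the neuron list, was called higher in SNI than in JA at 1.07 (adjusted p = 0.614).
Hoxc10 was also lower in JA 2 and JA 3 than in JA 1 and every SNI sample, but PLM 3, at 34.32 TPM, was lower than JA 3, and Hoxd10 in JA 3, at 23.19 TPM, lay within the range of SNI. The part of motor neuron content in the Hox values was not tested. All 6 astrocyte markers were lower in PLM than in SNI by both rules, with summed levels of 431 to 493 TPM against 1000 to 1221 TPM, and their part in the Hox values was not tested either.

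**Figure D5:**
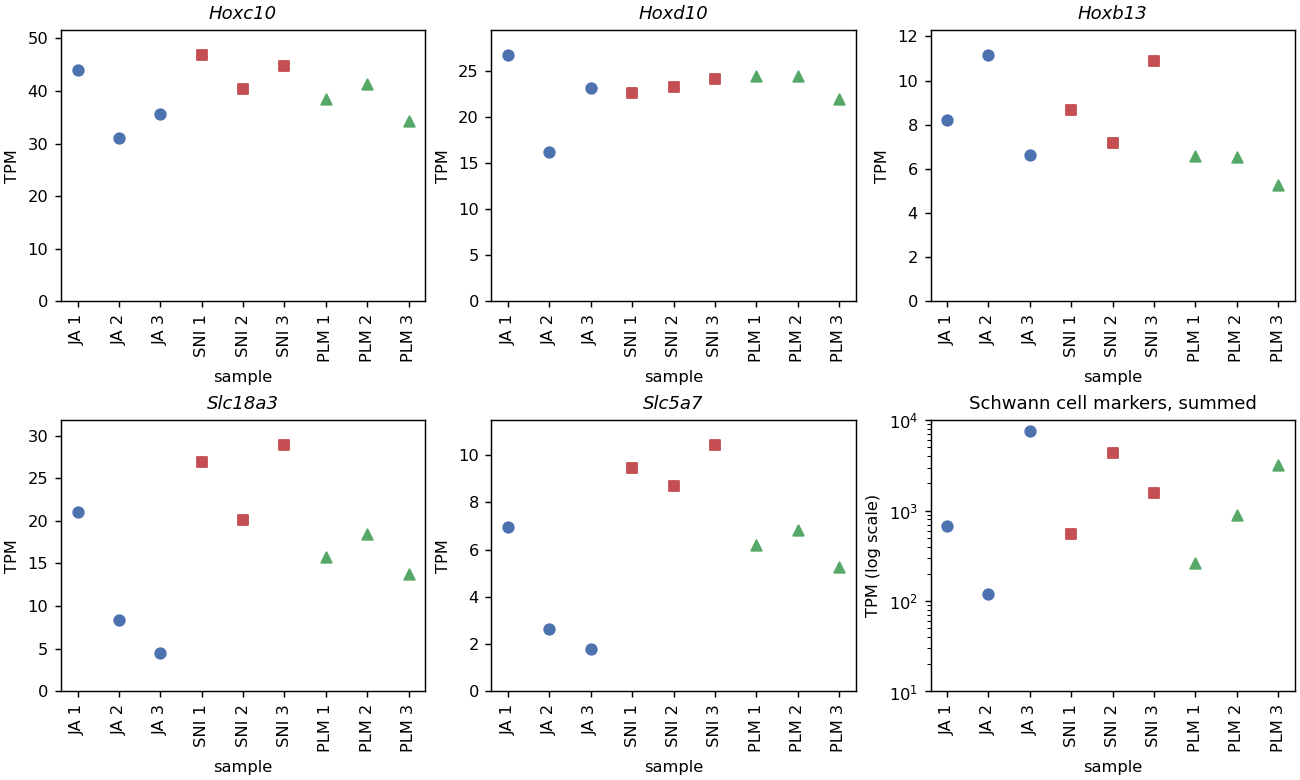
TPM in each sample (x axis) of Hoxc10, Hoxd10, Hoxb13, the cholinergic neuron genes Slc18a3 and Slc5a7 and the summed Schwann cell markers. The axis of the markers is logarithmic and the others start at 0. Slc18a3 runs from 4.56 to 28.90 TPM and the Schwann cell markers from 121 to 7570 TPM, whereas Hoxd10 stays between 16.22 and 26.77 TPM.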

How the data were processed

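The authors trimmed reads under a quality of 20, mapped them with HISAT2 version 2.0, computed expression with StringTie version 1.3.3b and deposited TPM values with 2 decimals. The submitters' processing notes also name CASAVA, fastp 0.19.5 and a human build, GRCh38.p13, whereas the identifiers are those of rat genes; the rat build is not given in the sources used here. Depth is unknown, so no counting interval is given.

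Groups were compared in pairs on log2(TPM + 1) with limma 3.58.1 in R 4.3.3, with a variance trend, for loci that averaged 1 TPM or more in those 6 samples, and Benjamini-Hochberg adjustment ran over all loci tested. The code was tested on simulated data. Named with each sample's TPM were members of groups 8 to 13 averaging 1 TPM or more, members passing either rule and the 5 highest; other list genes were named if passing or highest. Some genes of the lists are not reported here by name. Members and lists were chosen with earlier results of these data known. Alternatives were another pseudocount (0.1), filters, scalings, fits to all 9 samples or with a replicate block, other score weights and each sample left out; rows of 1 symbol summed was added after seeing the data. Of 37 symbols, 5 of cluster A have 11 rows between them, so their reads may be split. RefSeq GRCr8 models of 12 Hox symbols overlap another gene, and use of strand in counting is not given in the sources used here.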

Additional observations from a re-analysis of the deposited data

How the results depend on the processing

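The count of Hox genes called was 0 in all 3 comparisons under each of the 15 alternatives, and the count at an adjusted p under 0.05 stayed 0 in SNI against JA and PLM against JA. In PLM against SNI that count, 1, became 2 without a filter on low values, where the lower row of Hoxa2 joined Hoxc6, and 0 with median-centred samples, with TPM rescaled without mitochondrial genes, and with quantile normalization. Leaving out 1 sample gave 0 to 1: Hoxc6 did not pass without PLM 1, 2 or 3 and without SNI 1 or 3, at adjusted p values from 0.0518 to 0.0934. With the replicate number as a block the count was 0 (Hoxc6 adjusted p = 0.121); same-numbered samples did not deviate together (r from -0.046 to 0.126), so the numbers give no pairing. The mean paralog number of SNI minus JA, 0.114, was 0.0824 with log weights, 0.153 without Hoxb8, and 0.352, -0.0102, -0.0790 and 0.290 with cluster A, B, C or D alone. PLM minus SNI, -0.0475, was 0.0222 with log weights and 0.0328, 0.0518 and 0.0419 with cluster A, B or C. PLM minus JA, 0.0666, was 0.384, -0.0370 and 0.222 with cluster A, C or D. The share on groups 10 to 13 of PLM minus SNI, -1.61 points, was -0.755 without Hoxb8 and -2.43 as a share of groups 8 to 13. The causes were not tested. Of 720 values of the 16 named members under alternatives, 9 no longer passed an adjusted p under 0.05, all of Hoxc6, 0 newly passed it, and 88 that had not passed changed sign. Read depth, which sets the precision of low rows, is unknown.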
